A study of Mus musculus with 10 samples.

Results

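The enzymes of the mitochondrial β-oxidation spiral are described here in the livers of mice fed iso-α-acids, the bitter acids of beer. The genes were chosen by name: Acadvl, Acadl, Hadha, Hadhb, Acadm, Acaa2, Hadh, Echs1, Acads and Eci1. Each of the 10 genes had 1 probe set among the 22206 probe sets of the Clariom S Mouse Array, which named 19505 genes in all. The iso-α-acids diet group was 5 male C57BL/6N mice, 8 weeks old when obtained, fed the AIN-93G diet with 0.5% (w/w) iso-α-acids for a week. The control diet group was 5 such mice pair-fed the AIN-93G diet without iso-α-acids. Both groups received 200 mg/kg of acetaldehyde i.p., the toxic product of ethanol, and the livers were taken 5 h later, so every difference below is between diets after acetaldehyde. The authors chose these mice as representative of their groups by serum enzyme values. Whole liver RNA was measured, in which fewer cells of a type and less RNA per cell cannot be told apart.

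β-Oxidation shortens a fatty acyl-CoA by repeated rounds of dehydrogenation, hydration, a second dehydrogenation and thiolysis, each round releasing acetyl-CoA. In mitochondria, enzymes bound to the inner membrane take long acyl chains, and soluble matrix enzymes take mainly medium and short ones. The liver relies on this pathway in fasting, when the acetyl-CoA supplies ketone bodies, and in mice many of its genes are targets of the fatty acid receptor PPARα.

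The values are log2 levels that the authors quantile normalized and summarized per probe set with qFARMS, a factor analysis that flattens a probe set unless its probes move together. Of all probe sets, 19767 (89.0%) were flat, with an SD over the 10 arrays under 0.001, and nothing can be read from these about the diets. All 10 spiral enzymes varied, with SDs between 0.12 and 0.52. The array medians lay between 6.71 and 6.72, and the number of arrays limits the precision. Iso-α-acids replicate 1 stood apart from the other 4 mice of its group, so results are given with and without it. This mouse was picked out by its values in these same data. For genes in which it lay low, leaving it out raises the difference and narrows the spread by construction. Genes that pass without it are therefore a description and no separate support. Hepatocyte markers summed to 15.70 to 15.79 in iso-α-acids mice and to 15.71 to 15.75 in the control diet group (log2 of the summed linear levels of 7 genes), although 4 of them (Alb, Ttr, Apoa1 and Serpina1a) were flat. Of the varying ones, Cyp2e1 and Cps1 had log2 differences of 0.19 and -0.12, and neither passed, but without replicate 1 Cps1 passed as lower, at -0.20 (adjusted p = 0.0467 from limma). The p-values come from limma over all probe sets with Benjamini-Hochberg adjustment, and a gene passed at an adjusted p under 0.05.

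The upstream sequences of the genes around which the results turn are shown first. Acadl and Acadm are the spiral enzymes that passed limma's test, and Hadha and Hadhb encode both subunits of one protein. RefSeq (GRCm38.p6) gave a promoter window, from 250 bases before to 50 after the gene's start, for 9 of the 10 genes. Hadha and Hadhb lie head to head on chromosome 5, with 272 bases between their starts, so that their windows overlap. The 250 bases before Acadl (chr1:66863310-66863559, minus strand) and Acadm (chr3:153944644-153944893, minus strand) and the 228 bases shared by Hadha and Hadhb (chr5:30155003-30155230, plus strand) read as follows, with GGGCGG (GC box, on either strand) in capitals for Acadl and the shared window and AGGTCA (the core motif of nuclear receptors, on either strand) in capitals for Acadm.
Acadl upstream: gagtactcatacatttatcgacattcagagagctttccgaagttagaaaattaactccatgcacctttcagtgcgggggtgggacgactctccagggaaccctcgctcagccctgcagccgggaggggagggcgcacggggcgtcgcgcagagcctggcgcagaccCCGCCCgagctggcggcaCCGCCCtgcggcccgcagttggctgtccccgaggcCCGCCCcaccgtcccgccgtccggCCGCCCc
Acadm upstream: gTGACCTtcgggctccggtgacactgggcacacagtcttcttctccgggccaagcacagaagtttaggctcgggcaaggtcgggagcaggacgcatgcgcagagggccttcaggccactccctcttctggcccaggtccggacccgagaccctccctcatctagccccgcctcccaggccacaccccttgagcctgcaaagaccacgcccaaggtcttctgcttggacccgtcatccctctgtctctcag
Hadha-Hadhb shared: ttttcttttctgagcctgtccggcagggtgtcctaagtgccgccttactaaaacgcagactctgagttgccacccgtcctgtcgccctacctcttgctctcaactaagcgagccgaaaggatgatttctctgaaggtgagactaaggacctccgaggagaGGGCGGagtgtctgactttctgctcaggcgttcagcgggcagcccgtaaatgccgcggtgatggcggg

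Matches to AGGTCA on either strand were found in 3 of the 9 promoter windows (Acadm, Acadvl and Echs1), and 16.3% of all 32851 windows of this length held one. The classical PPAR motif, a direct repeat of AGGTCA with 1 base between, matched in 0 of the 9 and in 0.0396% of all windows. The motif of oestrogen-related receptors, TNAAGGTCA, which like the repeat contains AGGTCA, matched in 0 of the 9 and in 1.28% of all windows. GC boxes (GGGCGG, either strand) were in 7 of the 9, against 35.7% of all windows, with 4 upstream of Acadl. The only GC box of Hadha lies in the region shared with Hadhb and was counted for both genes. CCAAT was in 1 of the 9 (Hadh), against 37.4% of all windows. The core of the antioxidant response element, TGACNNNGC, matched in 0 of the 9 and in 12.4% of all windows. Each motif was searched on both strands. These matches describe letters in the windows and were not set against binding data.

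Acadm and Acadl, the acyl-CoA dehydrogenases of medium and long chains, rose with the iso-α-acids diet, Acadm by 1.51-fold and Acadl by 1.53-fold. The other 8 genes did not pass limma's test. All 10 log2 differences were positive, from 0.08 for Acads to 0.80 for Eci1, with a median of 0.38, against a median of 0.01 over the 2439 varying probe sets. Among all probe sets, limma called 0.59% higher and 0.171% lower. Of the spiral enzymes, 2 were called higher and 0 lower, with 8 higher and none lower at an unadjusted p under 0.05. Of all probe sets, 4.81% were higher at that unadjusted p, and 22.6% of the varying ones. Without iso-α-acids replicate 1, limma called 8 of the 10 higher and 0 lower, all but Acaa2 and Echs1, where it called 1.57% of all probe sets higher and 0.662% lower.

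**Figure D1:**
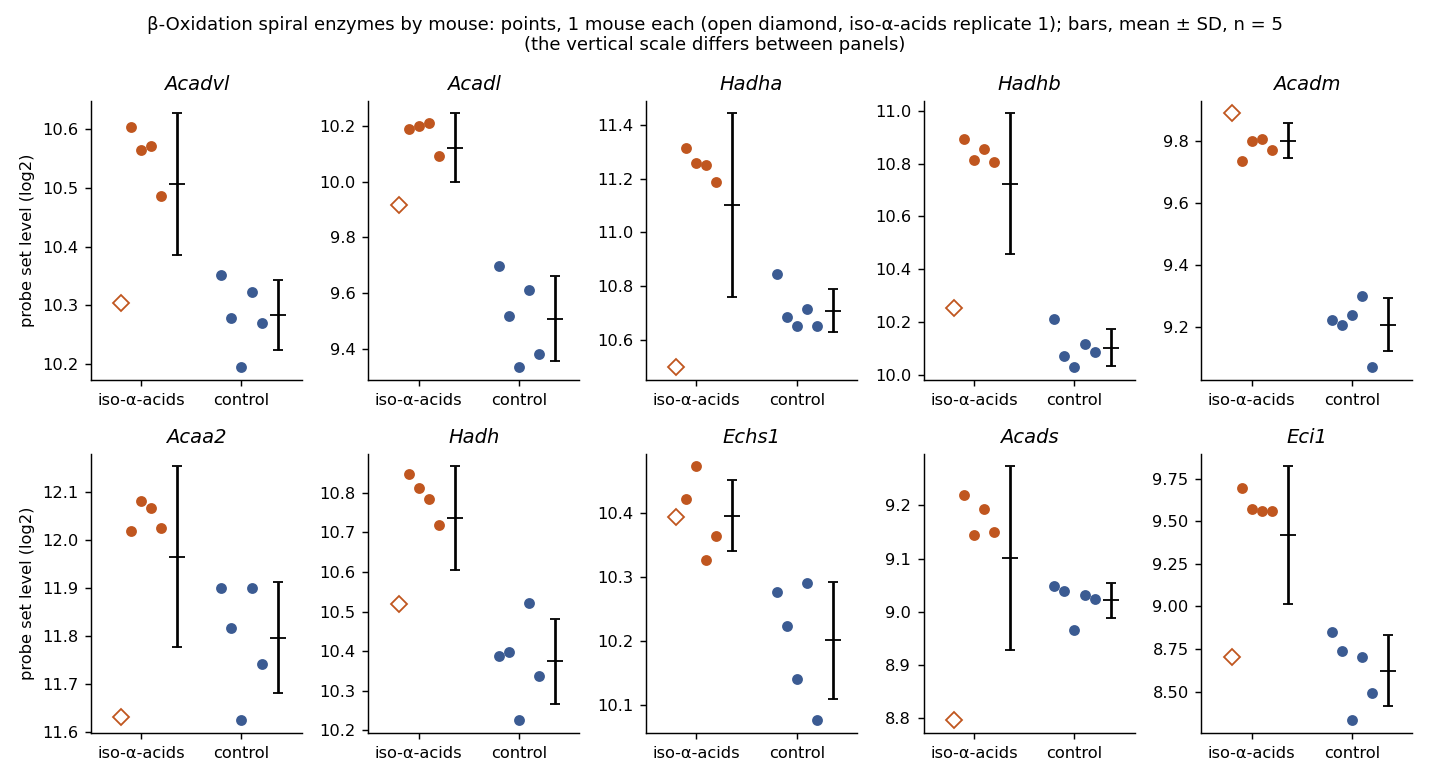
Log2 probe set level (vertical axis, its scale set per panel) of each spiral enzyme in each mouse, iso-α-acids diet left and control diet right, with mean ± SD (n = 5) beside the points and iso-α-acids replicate 1 as an open diamond. Iso-α-acids replicates 2 to 5 lie above every control mouse in all 10 panels, while replicate 1 is below every control mouse for Hadha and Acads.

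Very long chains are first dehydrogenated by VLCAD of the inner membrane, the product of Acadvl. Acadvl was at 10.30, 10.60, 10.57, 10.57 and 10.49 in iso-α-acids replicates 1 to 5, against 10.35, 10.28, 10.19, 10.32 and 10.27 in control replicates 1 to 5. The groups overlapped through iso-α-acids replicate 1 alone, which lay within the control range. The log2 difference was 0.22 (SE, the standard error, 0.059, adjusted p = 0.200 from limma), and without that mouse it was 0.27 (SE 0.037, adjusted p = 0.0123).

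Acadl encodes LCAD, the long-chain acyl-CoA dehydrogenase of the matrix. Its level was 9.92, 10.19, 10.20, 10.21 and 10.09 in iso-α-acids replicates 1 to 5, against 9.70, 9.52, 9.33, 9.61 and 9.38 in control replicates 1 to 5. Every iso-α-acids mouse lay above every control mouse, with replicate 1 the lowest of its group. The means were 10.12 ± 0.12 in iso-α-acids mice and 9.51 ± 0.15 in the control diet group (SD, n = 5 each), a log2 difference of 0.61 (SE 0.086, adjusted p = 0.0207 from limma). The call was lost without any 1 of control replicates 2 and 5 and iso-α-acids replicates 2 to 5 (adjusted p = 0.0616 to 0.0744), while the log2 difference stayed between 0.57 and 0.67 without any 1 mouse.

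Hadha and Hadhb encode the α and β subunits of the mitochondrial trifunctional protein, which carries out the remaining steps of a round on long chains. The α subunit holds the hydratase and the hydroxyacyl-CoA dehydrogenase, and the β subunit holds the thiolase. Hadha was at 10.50, 11.32, 11.26, 11.25 and 11.19 in iso-α-acids replicates 1 to 5, against 10.84, 10.69, 10.65, 10.71 and 10.65 in control replicates 1 to 5. Replicate 1 lay below every control mouse, and the other 4 lay above every one. Hadha had a log2 difference of 0.39 (SE 0.15, adjusted p = 0.432 from limma), and of 0.54 (SE 0.045, adjusted p = 0.00158) without replicate 1.

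Hadhb was at 10.25, 10.90, 10.81, 10.86 and 10.81 in iso-α-acids replicates 1 to 5, against 10.21, 10.07, 10.03, 10.12 and 10.09 in control replicates 1 to 5. The groups did not overlap, but iso-α-acids replicate 1 cleared the highest control mouse by only 0.04. Its log2 difference was 0.62 (SE 0.12, adjusted p = 0.0758 from limma), and 0.74 (SE 0.038, adjusted p = 0.000136) without that mouse. Replicate 1 lay 0.21 below the control mean for Hadha (log2 deviation -0.21) and 0.15 above it for Hadhb, and the shared region printed above lies between the starts of both genes. In replicates 2 to 5 the deviations averaged 0.54 for Hadha and 0.74 for Hadhb. Whether the subunits differed in their response was not tested.

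Acadm encodes MCAD, the medium-chain acyl-CoA dehydrogenase, the enzyme that is deficient in the commonest inherited disorder of human β-oxidation. It was at 9.89, 9.74, 9.80, 9.81 and 9.77 in iso-α-acids replicates 1 to 5, against 9.22, 9.20, 9.24, 9.30 and 9.07 in control replicates 1 to 5. Acadm was the only spiral enzyme for which iso-α-acids replicate 1 was the highest of its group. The groups were separated by 0.44 between the lowest iso-α-acids mouse and the highest control mouse. The means were 9.80 ± 0.056 in iso-α-acids mice and 9.21 ± 0.085 in the control diet group (SD, n = 5 each), a log2 difference of 0.59 (SE 0.045, adjusted p = 0.000763 from limma). It passed without any 1 mouse (adjusted p = 0.000591 to 0.00531).

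The matrix thiolase Acaa2, which ends the rounds on medium chains, and the hydroxyacyl-CoA dehydrogenase Hadh, which acts on medium and short chains, differed less. Acaa2 was at 11.63, 12.02, 12.08, 12.07 and 12.03 in iso-α-acids replicates 1 to 5, against 11.90, 11.82, 11.62, 11.90 and 11.74 in control replicates 1 to 5. Replicate 1 was next to the lowest control mouse. Acaa2 had a log2 difference of 0.17 (95% confidence interval -0.05 to 0.39, adjusted p = 0.655 from limma), and of 0.25 without replicate 1 (adjusted p = 0.0975). Hadh was at 10.52, 10.85, 10.81, 10.78 and 10.72 in iso-α-acids replicates 1 to 5, against 10.39, 10.40, 10.22, 10.52 and 10.34 in control replicates 1 to 5. Replicate 1 lay just under the highest control mouse, at 10.518 against 10.522, and the other 4 cleared it. The log2 difference of Hadh was 0.36 (SE 0.074, adjusted p = 0.0921 from limma), and 0.42 (adjusted p = 0.0144) without replicate 1.

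Echs1, the short-chain enoyl-CoA hydratase, and Acads, the short-chain acyl-CoA dehydrogenase, act on the shortest chains. Echs1 was at 10.39, 10.42, 10.47, 10.33 and 10.36 in iso-α-acids replicates 1 to 5, against 10.28, 10.22, 10.14, 10.29 and 10.08 in control replicates 1 to 5. The groups did not overlap, and replicate 1 lay in the middle of its group. Echs1 had a log2 difference of 0.19 (SE 0.047, adjusted p = 0.151 from limma). Without replicate 1 the log2 difference was again 0.19 (adjusted p = 0.153).

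Acads was at 8.80, 9.22, 9.14, 9.19 and 9.15 in iso-α-acids replicates 1 to 5, against 9.05, 9.04, 8.97, 9.03 and 9.02 in control replicates 1 to 5. Replicate 1 was below every control mouse and the other 4 were above every one. The log2 difference of Acads was the smallest of the 10, at 0.08 (95% confidence interval -0.10 to 0.26, adjusted p = 0.837 from limma). Without replicate 1 it was 0.15 (SE 0.022) and passed (adjusted p = 0.0163), a 1.11-fold difference.

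Eci1 encodes a mitochondrial enoyl-CoA isomerase, which shifts the double bond of unsaturated chains so that the spiral can go on. It was at 8.70, 9.69, 9.57, 9.56 and 9.56 in iso-α-acids replicates 1 to 5, against 8.85, 8.74, 8.33, 8.70 and 8.49 in control replicates 1 to 5. Replicate 1 lay among the control mice, and the other 4 lay at least 0.71 above the highest of them. Eci1 had the largest log2 difference of the 10, at 0.80, and also the largest SE, 0.20 (adjusted p = 0.169 from limma). Without replicate 1 it was 0.97 (SE 0.11, adjusted p = 0.00529), a 1.96-fold difference.

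**Figure D2:**
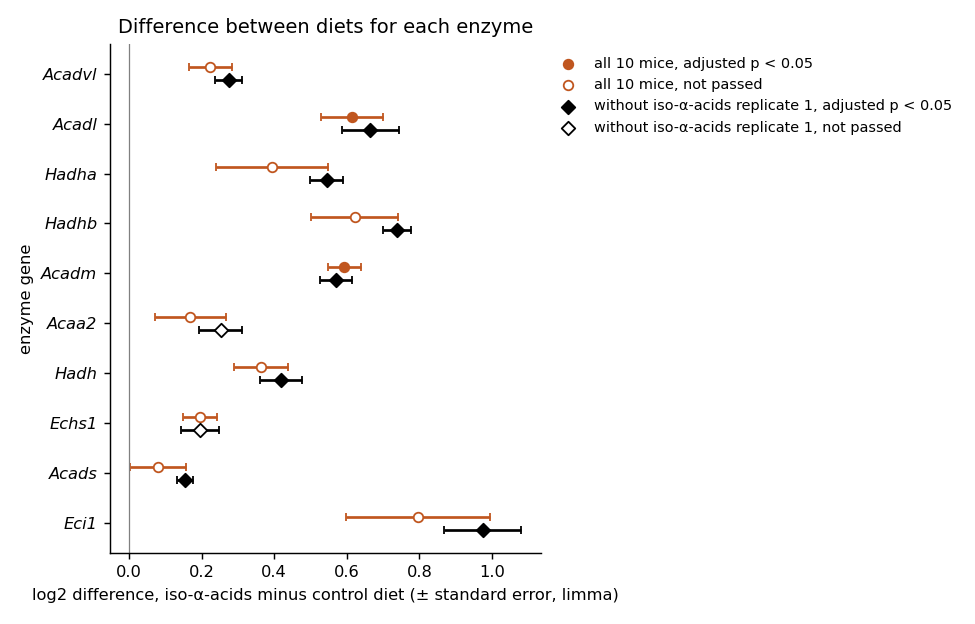
Log2 difference (iso-α-acids minus control diet, horizontal axis, ± SE from limma) of each spiral enzyme (vertical axis), with all 10 mice (circles) and without iso-α-acids replicate 1 (diamonds), filled where the adjusted p was under 0.05. With all mice 2 symbols are filled, and without that mouse 8 are.

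By chain length, the genes of enzymes for very long to medium chains (Acadvl, Acadl, Hadha, Hadhb and Acadm) had log2 differences of 0.22 to 0.62. Those for medium to short chains (Acaa2, Hadh, Echs1 and Acads) had 0.08 to 0.36. The cut falls among medium-chain enzymes, with Acadm (0.59) on one side and Acaa2 (0.17) on the other. Eci1 (0.80) is in neither range, so no trend with chain length can be read from them. Both ranges hold genes of the same step: among the acyl-CoA dehydrogenases the log2 difference was 0.22 for Acadvl, 0.61 for Acadl, 0.59 for Acadm and 0.08 for Acads. The thiolases had 0.62 (Hadhb) and 0.17 (Acaa2), and the single-function hydratase Echs1 had 0.19. The 95% confidence intervals were 0.42 to 0.81 for Acadl, 0.49 to 0.70 for Acadm and -0.10 to 0.26 for Acads. These genes were picked by their values and measured in the same mice, so the intervals do not compare them. Differences between the genes in their response were not tested.

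The permutation test, which does not use limma's shared variance, was taken over all 252 labelings of the 10 arrays. Acadl, Hadhb, Acadm and Echs1 reached its smallest two-sided p of 0.00794 (exact permutation test), since their groups did not overlap. In 1.77% of all probe sets and 12.1% of varying ones, every iso-α-acids mouse lay above every control mouse. Of the remaining genes, Hadh (p = 0.0159), Acadvl (p = 0.0238), Eci1 (p = 0.0317) and Hadha (p = 0.0476) were under 0.05 in the exact permutation test. Acaa2 (p = 0.135) and Acads (p = 0.373) were not under 0.05 in the same exact permutation test. These p-values are not adjusted.

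The count of spiral enzymes that passed depended on the test. Over varying probe sets only, limma called 7 of the 10 higher and 0 lower, all but Hadha, Acaa2 and Acads, where it called 13.4% of these probe sets higher and 6.89% lower. Without iso-α-acids replicate 1 as well, it called all 10 higher and 0 lower, where 26.6% were called higher and 14.2% lower. Rank products, the method of the study but run here in a form written anew, called 9 higher and 0 lower, all but Acads. Of all probe sets, this form called 3.72% higher and 3.18% lower. Over varying probe sets only, rank products called 1 higher (Eci1) and 0 lower, where 3.81% were called higher and 3.08% lower. With the replicate number as a block, limma called 1 higher (Acadm) and 0 lower, where 0.0946% of all probe sets were called higher and 0.0045% lower. With array weights, limma called 4 higher (Acadl, Hadhb, Acadm and Hadh) and 0 lower, where 0.811% of all probe sets were called higher and 0.252% lower. At an adjusted p under 0.01, it called 1 higher (Acadm) and 0 lower, where 0.23% of all probe sets were called higher and 0.0135% lower. Acadm thus passed in each of these but rank products over varying probe sets.

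Iso-α-acids replicate 1 divided the spiral enzymes. Acadm (0.68), Acadl (0.41), Echs1 (0.19) and Hadhb (0.15) were above every control mouse in this liver, with the log2 deviation from the control mean in brackets. Hadh (0.14), Eci1 (0.08), Acadvl (0.02) and Acaa2 (-0.17) were within the control range, and Hadha (-0.21) and Acads (-0.23) were below it. Replicate 1 was the lowest iso-α-acids mouse in 8 of the 10 genes, as it was in 50.1% of varying probe sets. The mean deviation over the 10 genes was 0.11 in replicate 1 and 0.43 to 0.51 in replicates 2 to 5, against -0.11 to 0.10 in the control mice. In replicates 2 to 5 all 10 genes lay above every control mouse, as did 3.62% of all and 24.4% of varying probe sets. The SDs among these 4 mice were 0.030 to 0.065, so that the gap to replicate 1 was several times the spread for all genes but Echs1. For Acadm replicate 1 lay 0.11 above their mean, for Echs1 it differed from it by -0.003, and for the other 8 genes it lay below it.

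**Figure D3:**
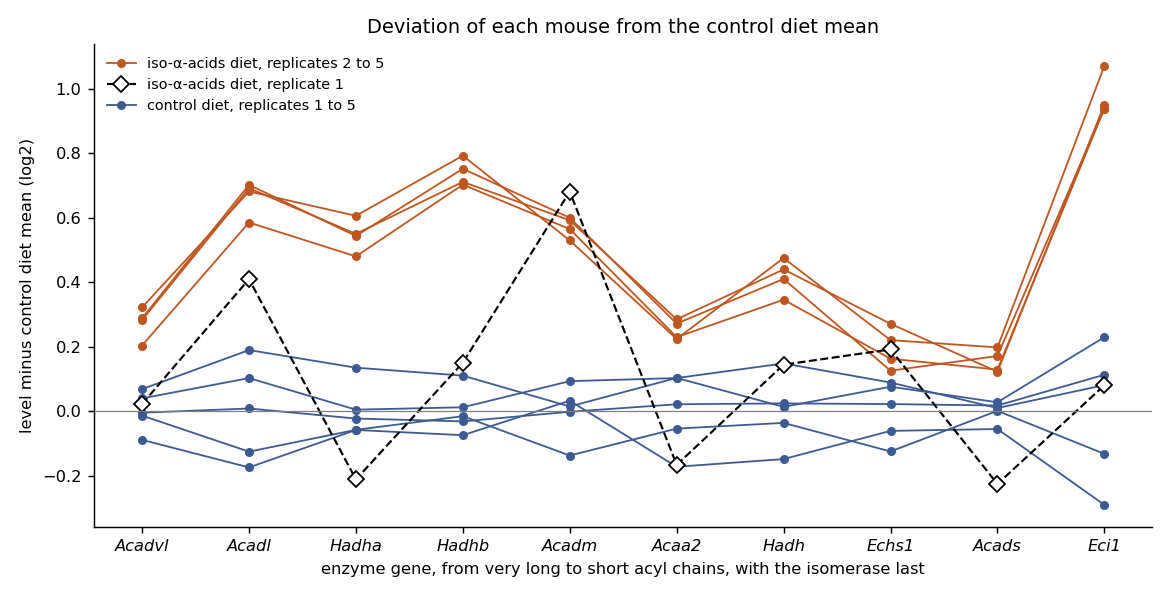
Log2 level minus the control diet mean (vertical axis) for each spiral enzyme (horizontal axis, from very long to short chains, with the isomerase last), 1 line per mouse. Iso-α-acids replicates 2 to 5 run together above the control mice, and replicate 1 reaches them only for Acadm (0.68) and Echs1 (0.19).

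The control mice also kept similar positions from gene to gene. Control replicate 1 was the highest of its group in 7 of the 10 genes and control replicate 4 in the other 3. Control replicate 3 was the lowest in 8 genes and control replicate 5 in 2, these being Acadm and Echs1. Acadm and Echs1 were also the genes in which iso-α-acids replicate 1 kept the level of its group. Control replicate 4 was the highest in these 2 and in Hadh, where iso-α-acids replicate 1 was the lowest of its group. The mean deviation over the 10 genes was 0.10 in control replicate 1 and -0.11 in control replicate 3. Replicate numbers do not tie mice of the groups together.

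Metallothioneins and some acute phase genes were high in iso-α-acids replicate 1. The 12 genes of that list averaged 1.24 above the control mean on the log2 scale in this mouse, and -0.72 to -0.35 in replicates 2 to 5, against -0.56 to 0.86 in control mice. The largest log2 differences of the list by size were -1.36 for Saa1 and -1.29 for Saa2, and neither passed (adjusted p = 0.515 and 0.661 from limma). Metallothionein Mt1 exceeded the control mean by 4.02 in replicate 1 and by 0.30 on average in replicates 2 to 5. Mt2 (4.42), Lcn2 (2.85), Orm2 (1.37) and Apcs (2.07) were also above the control mean in replicate 1, but Saa1 (-0.20), Saa2 (-0.36), Saa3 (-0.22) and Crp (-0.03) were not. The part of this response in the spiral enzyme levels was not tested. Of 7 Kupffer cell markers, the 5 varying ones had negative differences (median -0.54), none of which passed limma's test. The summed log2 level of the 7 was 10.52 to 10.82 in iso-α-acids mice and 10.93 to 11.38 in the control diet group. Of the defining Kupffer markers, Clec4f had a log2 difference of -0.66 (adjusted p = 0.0683 from limma) and Vsig4 of -0.56 (adjusted p = 0.239 from limma). Marco and Timd4 were flat, and no marker was at 0 on this log2 scale. Sinusoidal endothelial markers summed to 11.49 to 11.70 in iso-α-acids mice, against 11.59 to 11.73 in control mice, with log2 differences of -0.19 for Dnase1l3 and -0.16 for Lyve1. Stellate cell markers summed to 11.19 to 11.35 in iso-α-acids mice, against 11.27 to 11.36 in control mice, with log2 differences of -0.11 for Col3a1 and -0.08 for Dcn. Of 8 endothelial markers 4 varied (Stab1, Stab2, Clec4g and Pecam1 were flat), and of 8 stellate markers only the 2 named varied. Flat markers cannot show a change, so these sums say little about the cells. Cholangiocyte markers summed to 8.86 to 9.08 in iso-α-acids mice, against 8.85 to 9.15 in control mice, and Sox9, the only varying one, had a log2 difference of 0.06. No marker of these lists passed. The 7 leukocyte markers were all flat. The part of cell composition in the spiral enzyme levels was not tested.

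Around the spiral, auxiliary enzymes rose in part. They prepare chains that the spiral enzymes cannot take as they are, such as unsaturated, branched or odd ones. Of 14 measured genes, 9 varied, 3 rose and the other 11 did not pass. Eci2, a second enoyl-CoA isomerase found in mitochondria and peroxisomes, rose by 1.08 on the log2 scale (SE 0.12, adjusted p = 0.00723 from limma). Ech1, a dienoyl-CoA isomerase, rose by 0.72 and Acad11, an acyl-CoA dehydrogenase of very long and hydroxylated chains, by 0.39. All 3 lay above every control mouse in each iso-α-acids mouse, and in replicate 1 Eci2 was still 0.89 above the control mean, where Eci1 was 0.08 above it. Decr1, the dienoyl-CoA reductase, followed Eci1, with a log2 deviation of -0.14 in replicate 1 and of 0.80 on average in replicates 2 to 5.

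Entry into the mitochondrion runs through acyl-CoA synthetases and the carnitine shuttle. Of 10 measured genes, 8 varied, 2 rose and none fell. Crat, the carnitine acetyltransferase, was at 9.66 ± 0.30 in iso-α-acids mice and at 7.99 ± 0.13 in the control diet group (SD, n = 5 each), a log2 difference of 1.66 (adjusted p = 0.00172 from limma), larger than that of any spiral enzyme. Slc22a5, the carnitine importer OCTN2, rose by 0.51 (adjusted p = 0.00529 from limma). The shuttle proper did not pass with all mice: log2 differences were 0.18 for Cpt1a, 0.52 for Cpt2 and 0.66 for the translocase Slc25a20. Without iso-α-acids replicate 1, 5 of the 10 passed, Cpt2 and Slc25a20 among them, and Cpt1a, which sets the rate of entry, did not (adjusted p = 0.222 from limma).

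Electrons from the acyl-CoA dehydrogenases pass to the electron transfer flavoprotein and its dehydrogenase. Neither measured gene passed limma's test, with log2 differences of 0.07 for Etfa (SE 0.035, adjusted p = 0.606) and 0.35 for Etfdh (SE 0.10, adjusted p = 0.25). In ketone body synthesis, which uses the acetyl-CoA of the spiral, the log2 difference was 0.38 for the thiolase Acat1 (adjusted p = 0.0921 from limma) and 0.21 for Bdh1 (adjusted p = 0.893 from limma). Without replicate 1, Etfdh (0.43, adjusted p = 0.0284), Acat1 (0.44, adjusted p = 0.0144) and Bdh1 (0.50, adjusted p = 0.0166) passed limma's test and Etfa (0.09, adjusted p = 0.346) did not. Bdh1 lay 0.93 below the control mean in replicate 1 (log2 deviation -0.93).

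In peroxisomes, which shorten the longest chains, 13 genes were measured, 11 varied, 2 rose and none fell. Ehhadh, the bifunctional enzyme, rose by 1.78 (SE 0.27, adjusted p = 0.0292 from limma) and Abcd2, a transporter of very long acyl-CoAs, by 1.74 (SE 0.14, adjusted p = 0.00140 from limma). The median of the varying genes was 0.49, against 0.38 for the spiral enzymes, and 0.37 over all 13 measured, flat ones included. Of the 11 varying genes 8 had positive differences, against 10 of 10 in the spiral. Without replicate 1, 7 of the 13 passed. Over these 5 lists beside the spiral, 7 genes rose with all mice and 19 passed without replicate 1. Among 14 targets of PPARα outside the spiral, Cpt1a included, 6 rose, led by Cyp4a14 (6.25), Cyp4a10 (4.26), Acot1 (2.06) and Acot2 (1.75). Without replicate 1, 10 of the 14 passed as higher, where limma called 1.57% of all probe sets higher. Over the 12 varying targets the mean log2 deviation was 1.05 in replicate 1 and 1.84 in replicates 2 to 5. In replicate 1, Cyp4a14 deviated by 6.48 and Cyp4a10 by 4.19, about as in the other 4 mice, whereas Fabp1 (-1.41), Plin2 (-1.02), Pdk4 (-0.33) and Cpt1a (-0.07) lay below the control mean. Vnn1 deviated by 0.48 in replicate 1 and by 2.71 on average in replicates 2 to 5, so that lower levels in this mouse were also seen outside the spiral.

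**Figure D4:**
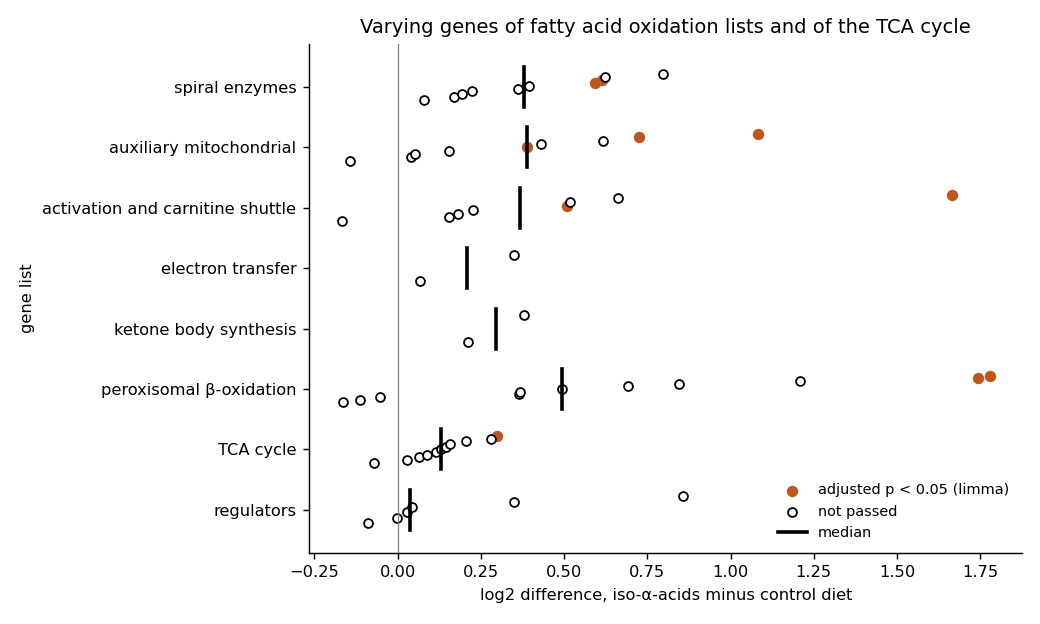
Log2 difference (iso-α-acids minus control diet, horizontal axis) of the varying genes of each list (vertical axis), 1 point per gene, filled where limma's adjusted p was under 0.05, with the median as a bar. The median is 0.38 for the spiral enzymes, 0.49 for peroxisomal β-oxidation and 0.13 for the TCA cycle.

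The TCA cycle, as a set of other mitochondrial enzymes, had a median log2 difference of 0.13 over 11 varying genes of 16 measured. Of these, Suclg2, a subunit of succinyl-CoA ligase, rose by 0.30 (adjusted p = 0.000919 from limma) and 15 did not pass. Without replicate 1, 3 of the 16 passed, Suclg2 with Mdh2 (0.19, adjusted p = 0.00422) and Suclg1 (0.37, adjusted p = 0.0435). Among 14 regulators of the pathway, 6 varied and none passed, the largest log2 differences being 0.86 for Pparg (SE 0.21, adjusted p = 0.154 from limma) and 0.35 for Lpin1 (adjusted p = 0.746 from limma). Ppara itself, which encodes PPARα, had a log2 difference of -0.09 (SE 0.12, adjusted p = 0.892 from limma). The coactivators Ppargc1a and Ppargc1b were flat.

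Outside these lists, the genes that most resembled the mean of the spiral enzymes over the 10 arrays were sought among 1516 named genes with an SD of at least 0.1. The 5 with the highest Pearson r were Pctp (0.99), Dhrs4 (0.98), Hsdl2 (0.98), Rtn4 (0.98) and Aldh1a1 (0.98). These points share the diets and iso-α-acids replicate 1, so the coefficients describe these arrays only. Pctp, which encodes a phosphatidylcholine transfer protein, exceeded the control mean by 0.58 in replicate 1 and by 1.83 on average in replicates 2 to 5.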

How the data were processed

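Liver RNA of 10 mice was hybridized to 1 Clariom S Mouse Array each. The deposited log2 values were made by the authors from CEL files by quantile normalization and qFARMS summarization in R and Bioconductor. Versions, settings and the log base are not given in the sources used here, and log2 was read from the range (4.94 to 13.37). No further normalization was applied. Symbols came from the platform annotation (19572 probe sets with 1 symbol, 2634 with none) and were looked up in RefSeq (GRCm38.p6). A gene was represented by its brightest probe set.

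Diets were compared with limma 3.58.1 in R 4.3.3 (lmFit, eBayes, prior degrees of freedom 0.348, no block, two-sided), Benjamini-Hochberg adjusted over all 22206 probe sets. The study's test, rank products, was an alternative. It was written anew, with the median over all 120 one-to-one pairings and Benjamini-Hochberg adjustment, and may differ from the version that the study ran. Limma and this form were both tested on simulated data. The genes and lists were chosen with earlier results of these data known. All spiral enzymes were named. From other lists, up to 4 genes that passed were named, or the 2 with the largest differences. Decr1, the shuttle genes, Ppara, its coactivators, Mdh2 and Suclg1 were chosen after their values were seen. So were Fabp1, Plin2, Pdk4 and Vnn1, and the metallothionein and acute phase genes named beside Saa1 and Saa2. Alternatives were leaving out each mouse, a replicate block, further normalization, filters on dim or flat probe sets, trended or robust eBayes, limma's array weights, the methods' t-test, 1 probe set per gene and stricter thresholds. The study's other assays were not used here.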

Additional observations from a re-analysis of the deposited data

Results flagged for a closer look

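Each diet group of 5 mice was examined for a mouse far from the others of its group (gap to the nearest mouse divided by the range, above Dixon's critical value of 0.71). Of 20 such groups, 10 per diet, 5 held one, each time iso-α-acids replicate 1 at the low end. Chance flags about 1 in 20 groups when the groups are independent. These are not, since the genes were measured in the same mice, and all 5 flags are 1 mouse. The count thus cannot be set against that rate. The ratio was 0.846 for Hadha, 0.86 for Hadhb, 0.865 for Acaa2, 0.822 for Acads and 0.866 for Eci1.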

How the results depend on the processing

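All 10 log2 differences stayed positive without any 1 mouse, under repeated centring or normalization and with array weights. Changing the test, the threshold, the filter or the block cannot move these differences, so those runs bear on the calls only. The median of the spiral enzymes stayed between 0.34 and 0.48 under repeated centring or normalization and without any 1 mouse. These moves were smaller than the spread between mice. That spread was the pooled SD of the per-mouse median over the genes, 0.13. It includes iso-α-acids replicate 1, without which the median was 0.48, so it is a wide measure for leaving out that mouse. The count of spiral enzymes called higher (2) ranged from 1 to 8 when 1 mouse was left out, with 8 without iso-α-acids replicate 1 and 1 without control replicate 2 or 5 or any other iso-α-acids mouse. It was 1 with a replicate block (where limma called 0.0946% of all probe sets higher), 1 at an adjusted p under 0.01 (0.23%), 4 with array weights (0.811%) and 7 over varying probe sets only (13.4% of which were called higher). Chosen after the data were seen, rank products called 9 (3.72% of all probe sets higher), or 1 over varying probe sets (3.81%), and limma over varying probe sets without iso-α-acids replicate 1 called 10 (26.6%). The count for the 5 other lists of fatty acid oxidation (7) ranged from 4 to 19 without 1 mouse. At the same shares of all probe sets, it was 0 with the replicate block, 4 at an adjusted p under 0.01, 11 with array weights, 17 over varying probe sets and 25 over these without iso-α-acids replicate 1. By rank products 24 were higher and 2 lower. Spiral enzymes were called lower in 0 cases under each alternative. Same-numbered mice of the groups did not deviate together (r = -0.21 to 0.23 over varying probe sets, and 1 of 5 correlated best with its own number), so the replicate block rests on a shared number only. Planned rank products over 25 pairings were not run, since pairings that share an array break its p-value. The causes of these shifts were not tested.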
